A study of Mus musculus with 2 samples.

Results

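Interferon-stimulated genes and the receptors, sensors and transcription factors that govern them were examined in mouse platelets with and without Smad4. The list holds 50 genes, chosen by symbol, and 48 of them had at least 1 probe set annotated with that symbol alone, out of 18193 such genes on the array. Isg15 and Ifi44 had none and were not analysed. Platelets are fragments of megakaryocytes without a nucleus, so their mRNA was made in the megakaryocyte or taken up later.

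Platelets came from C57BL/6 mice of 2 genotypes. In Smad4 −/− mice a Cre recombinase under the platelet factor 4 (PF4) promoter acts on a loxP-flanked Smad4 gene in megakaryocytes and platelets. In Smad4 f/f mice Smad4 is flanked by loxP sites, and the labels call them wild-type controls without saying whether any of them carried Cre. The design names 6 mice per genotype, but each genotype has 1 array, and nothing in the labels says whether RNA was pooled. Age and sex of the mice are not stated either. With 1 array per genotype there is no replicate error, no test was possible, and precision is limited by there being 1 array on each side of every ratio.

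Interferons are cytokines released on infection. Type I interferons bind the receptor pair Ifnar1 and Ifnar2, and interferon gamma binds Ifngr1 and Ifngr2. Receptor-bound kinases then phosphorylate STAT proteins, and Stat2 with Irf9 and a STAT partner forms the complex ISGF3, which binds a promoter element called the ISRE. A STAT dimer, the usual product of interferon gamma, binds another element, the GAS. The genes switched on in this way block viral entry, translation and replication. Megakaryocytes and platelets are known to carry interferon-induced transcripts, among them those of the IFITM family.

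Promoters of the members carried these elements more often than other promoters did. Windows of 300 bases around RefSeq gene starts (250 before and 50 after, GRCm38.p6) were available for 40 members, some with several starts. The 9-letter ISRE core GAAANNGAA, or TTCNNTTTC where it lies on the other strand, was found in the windows of 19 of the 40 members (47.5%), against 2638 of 27025 genes (9.76%). The GAS letters TTCNNNGAA, which read the same on both strands, were found for 14 members (35.0%), against 2582 genes (9.55%). Over windows instead of genes, 8.56% of all 32851 held the ISRE core and 8.30% the GAS. Members on this list are known as interferon targets, so a higher share was built into the choice. A match is a run of letters and not a known binding site.

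Because Ifit1 and Ifitm1 had the highest ratios in their families, their start-site windows are shown with those of the neighbouring members Ifit3 and Ifitm3. Sequences are from RefSeq, 5′ to 3′ on the gene's strand, and capitals mark matches to the ISRE core on either strand. In Ifit1 the first 2 of 3 matches overlap and form 1 run, and in Ifitm3 the second match shares bases with a GAS match. Ifit3 and Ifitm3, and the short sites after them, were picked after their ratios were seen.

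Ifit1, GRCm38.p6 chr19:34640639-34640938, plus strand: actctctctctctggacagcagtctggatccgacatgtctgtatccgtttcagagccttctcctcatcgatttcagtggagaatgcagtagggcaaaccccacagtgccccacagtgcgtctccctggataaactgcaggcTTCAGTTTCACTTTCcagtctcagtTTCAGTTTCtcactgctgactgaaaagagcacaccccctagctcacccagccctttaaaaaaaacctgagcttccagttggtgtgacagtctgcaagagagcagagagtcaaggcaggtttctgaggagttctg
Ifit3, GRCm38.p6 chr19:34583279-34583578, plus strand: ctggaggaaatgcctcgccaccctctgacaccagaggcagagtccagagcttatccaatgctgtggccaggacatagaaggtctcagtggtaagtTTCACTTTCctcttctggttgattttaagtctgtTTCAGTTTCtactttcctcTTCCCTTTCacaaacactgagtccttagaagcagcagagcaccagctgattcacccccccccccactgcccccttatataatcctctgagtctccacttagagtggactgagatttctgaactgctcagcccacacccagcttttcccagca
Ifitm1, GRCm38.p6 chr7:140967826-140968125, plus strand: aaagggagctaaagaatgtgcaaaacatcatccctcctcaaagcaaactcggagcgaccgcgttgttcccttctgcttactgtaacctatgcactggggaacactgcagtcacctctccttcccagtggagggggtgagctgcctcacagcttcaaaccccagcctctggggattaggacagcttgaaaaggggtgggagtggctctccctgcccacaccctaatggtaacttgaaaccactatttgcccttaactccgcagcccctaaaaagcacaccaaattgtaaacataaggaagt
Ifitm3, GRCm38.p6 chr7:141010695-141010994, minus strand: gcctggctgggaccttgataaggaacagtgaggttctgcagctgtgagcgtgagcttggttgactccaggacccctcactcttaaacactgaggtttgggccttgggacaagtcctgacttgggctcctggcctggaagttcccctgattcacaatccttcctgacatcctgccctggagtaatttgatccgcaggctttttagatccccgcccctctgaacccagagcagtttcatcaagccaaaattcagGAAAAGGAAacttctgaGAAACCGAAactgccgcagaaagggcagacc

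Ifit1 and Ifit3 each held 3 matches, Ifitm3 held 2 and Ifitm1 none. Absence of these letters says only that they are not in this window. Another 5 members are shown by their first match with up to 6 bases on each side, since they include the neighbouring genes Gbp2 and Gbp3, whose ratios lay on opposite sides of 0, and Stat2, a subunit of the complex that binds the element.

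Stat2, GRCm38.p6 chr10:128270277-128270285, plus strand: cctggtTTCAGTTTCctttcc
Gbp2, GRCm38.p6 chr3:142620605-142620613, plus strand: tttagtTTCACTTTCactgtc
Gbp3, GRCm38.p6 chr3:142560000-142560008, plus strand: cacagtTTCAGTTTCtatttc
Rsad2, GRCm38.p6 chr12:26456563-26456571, minus strand: ccaactTTCATTTTCagaaaa
Ifitm2, GRCm38.p6 chr7:140955999-140956007, minus strand: caacagGAAAAGGAAattgct

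Capitals mark the first match only, and in Gbp3 a second match overlaps it. Coordinates of these short sites are those of the capital letters.

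Signals were deposited as log2 values of the summarised probes of each probe set. A floor was set at the 60th percentile of signal, a linear signal of 145, and genes that reached it on either array are called measured. This left 39 of the 48 members and 11089 of all genes. A gene took its value from the probe set with the highest mean signal, and its ratio divides the Smad4 −/− signal by the Smad4 f/f signal, both raised to the floor where lower. Where 1 array lay below the floor, the fold is a lower bound and is written as at least that size. Among the 45037 probe sets that are not controls, 38.5% reached the floor in Smad4 −/− and 40.0% in Smad4 f/f. All 11 platelet markers on the array were measured, from Pf4 to Clec1b, and their ratios lay between −0.11 and 0.43. The 3 probe sets of Smad4 read 894, 548 and 288 in Smad4 −/− platelets, against 949, 600.1 and 313 in Smad4 f/f platelets. Where these probe sets lie relative to the deleted part was not analysed here, so they do not check the genotype, which the labels state was checked on protein. For the Gapdh control probe sets the ratio of 3′ to 5′ signal, which rises as RNA degrades, was 2.61 in Smad4 −/− and 1.86 in Smad4 f/f, and for beta-actin 1.27 in Smad4 −/− and 1.16 in Smad4 f/f.

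In all, 3 members passed 2-fold, each of them higher in Smad4 −/−, and they fall in different role groups of the list. They are Ifitm1, a membrane protein that restricts viral entry, Ifit1, which binds viral RNA at its cap, and Parp14, an ADP-ribosyltransferase. None of the 39 passed 2-fold downwards with the floor used, but Gbp3 and Usp18 are bounds and passed it without a floor. Without a floor 11.7% of all measured genes were at least 2-fold lower. The background over the 11089 genes was 379 (3.42%) past 2-fold upwards and 397 (3.58%) downwards, or 7.00% in either direction. A 1.5-fold rule gave 7 members higher and 6 lower, against 11.8% and 13.3% of all genes (25.1% either way), and a 3-fold rule gave 1 higher and 0 lower, against 0.514% and 0.415% (0.929% either way). With both arrays centred on their medians the split over 11205 measured genes was 479 higher and 315 lower. Of the 39 members, 21 had a ratio above 0 and 18 below, against 48.3% of all measured genes above 0, and the median log2 ratio was 0.094, against −0.019 over all measured genes. With the measured probe sets of each gene averaged, the members' median was −0.044. Summed signals of 12 erythroid markers also differed, at 31387 in Smad4 −/− and 12452 in Smad4 f/f. The part of other cells and of RNA quality in the differences of Ifitm1, Ifit1 and Parp14 was not tested. In such bulk samples fewer cells of a type and less RNA per cell cannot be told apart. In the plot of signals by role the largest gaps are those of Ifit1, Ifitm1, Parp14 and, across the floor, Zbp1.

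**Figure D1:**
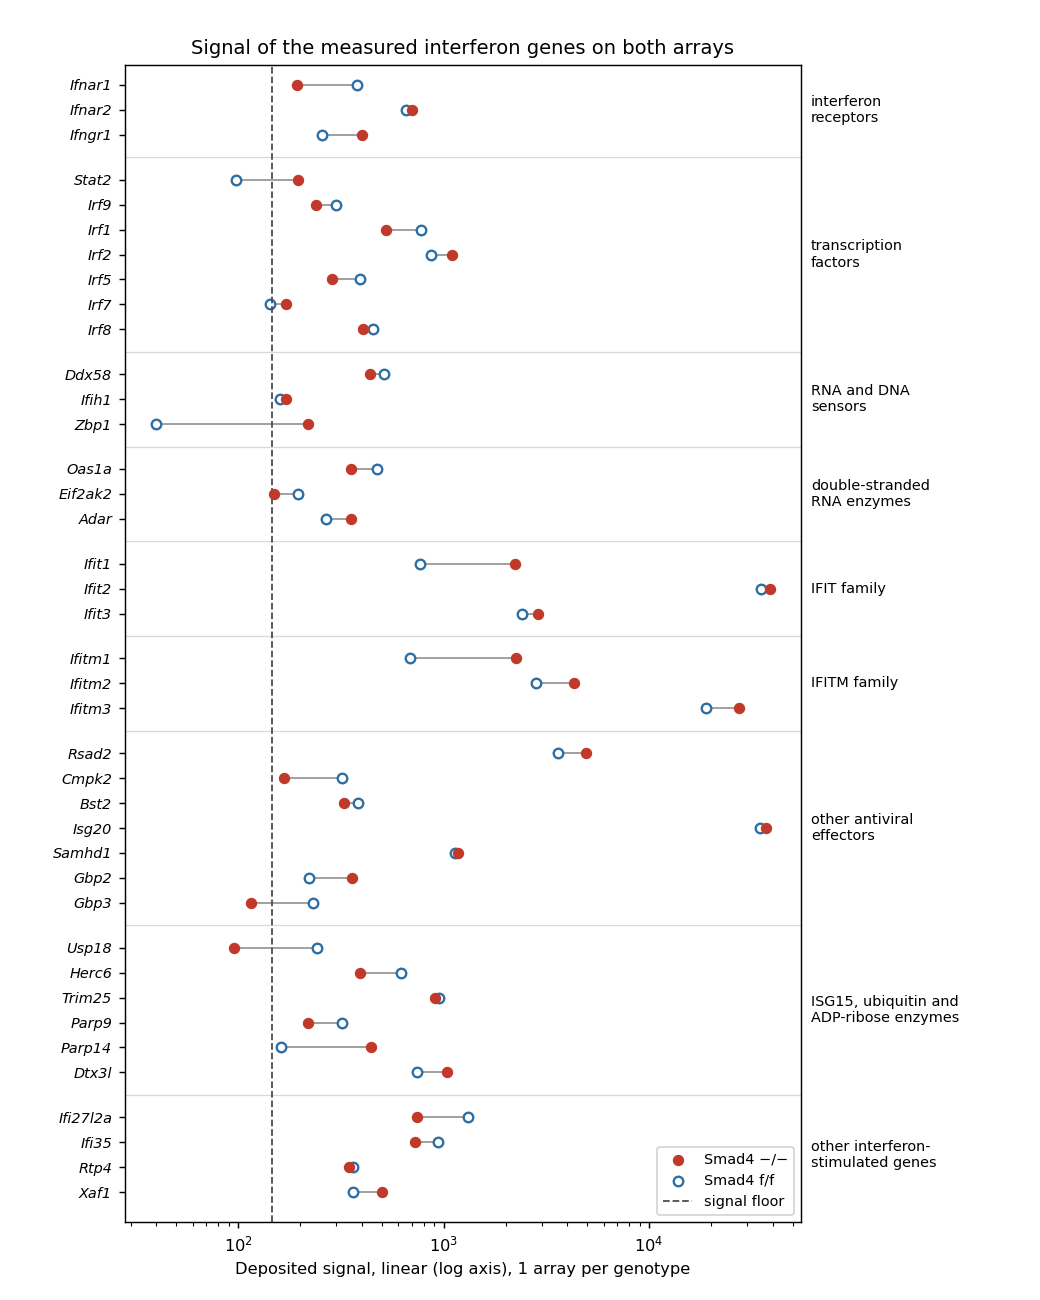
Deposited signal (linear values on a log axis) of the 39 measured members in Smad4 −/− (filled) and Smad4 f/f (open), grouped by role, with the floor of 145 as a dashed line. Points of a gene are joined, and each point is 1 array. Ifitm1 reads 2241 in Smad4 −/− and 682 in Smad4 f/f, whereas Ifit2 and Isg20 nearly coincide.

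The spread between probe sets of the same gene is the only yardstick in these data. Pooled over 4252 genes with at least 2 measured probe sets, log2 ratios of the same gene had an SD of 0.48. It holds no spread between mice or arrays. The ratios of 22 of the 39 members (56.4%) were smaller than this SD in size, as were 65.9% of all measured genes. Of 14 members with at least 2 measured probe sets, 7 had probe sets on both sides of 0, while 25 members rested on 1 measured probe set.

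The 3 IFITM genes on the list, Ifitm1, Ifitm2 and Ifitm3, read higher in Smad4 −/−. IFITM proteins sit in plasma and endosomal membranes and hinder fusion of enveloped viruses. Ifitm1 read 2241 in Smad4 −/− platelets, against 682 in Smad4 f/f platelets, 3.29-fold higher (log2 ratio 1.72). Only 38 of the 11089 measured genes, Ifitm1 included, had a ratio as high. Ifitm2 read 4306 in Smad4 −/− and 2829 in Smad4 f/f, 1.52-fold higher. Ifitm3, the member best known for restricting influenza virus, read 27438 in Smad4 −/− and 18941 in Smad4 f/f, 1.45-fold higher. The ratios of Ifitm2 and Ifitm3, 0.61 and 0.53, are just above the within-gene SD and short of 2-fold. These genes stand side by side on chromosome 7 in the RefSeq gene order, with Ifitm1 between the other 2. Each has 1 probe set with its symbol alone, so no second probe set can be set beside any of them. Under the 3 scalings of the arrays that were tried the log2 ratio of Ifitm1 was 1.81 (medians), 1.70 (quantiles) and 1.72 (loess). Centring on medians moves the ratios of these genes by the same amount, so it cannot change their order. Other genes of the family, which are not on the list, did not read higher: Ifitm6 read 230.5 in Smad4 −/− and 289 in Smad4 f/f, Ifitm10 read 28.1 in Smad4 −/− and 152 in Smad4 f/f, and Ifitm5 and Ifitm7 were below the floor on both arrays.

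The IFIT family showed 1 large ratio and 2 small ones. IFIT proteins bind foreign RNA and block its translation. Ifit1 read 2224 in Smad4 −/− platelets, against 768 in Smad4 f/f platelets, 2.89-fold higher (log2 ratio 1.53), and 68 measured genes had a ratio as high. Ifit2 read 38768 in Smad4 −/− and 34937 in Smad4 f/f, a log2 ratio of 0.15. Ifit3, which binds Ifit1 and stabilises it in human cells, read 2887 in Smad4 −/− and 2405 in Smad4 f/f, a log2 ratio of 0.26. The ratios of Ifit2 and Ifit3 are smaller than the within-gene SD. On chromosome 19 Ifit2 and Ifit3 are adjacent and Ifit1 lies a few genes on, and each again has a single probe set. The 3 ISRE cores in the windows of both Ifit1 and Ifit3 stood beside unlike ratios.

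Parp14, Dtx3l and Parp9 are adjacent on chromosome 16 and had unlike ratios. Parp9 and Dtx3l form a complex that joins ADP-ribosylation to ubiquitin ligase activity, and Parp14 acts on overlapping substrates in macrophages. Parp14 read 443 in Smad4 −/− and 161 in Smad4 f/f, 2.76-fold higher (log2 ratio 1.46). Its Smad4 f/f signal is close to the floor, and with the floor at the 75th percentile the ratio was at least 0.77, no longer 2-fold. Its second probe set was below the floor on both arrays. Dtx3l read 1042 in Smad4 −/− and 743 in Smad4 f/f (log2 ratio 0.49), but its other probe set gave −0.025. Parp9 read 218 in Smad4 −/− and 320.4 in Smad4 f/f, a log2 ratio of −0.55.

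**Figure D2:**
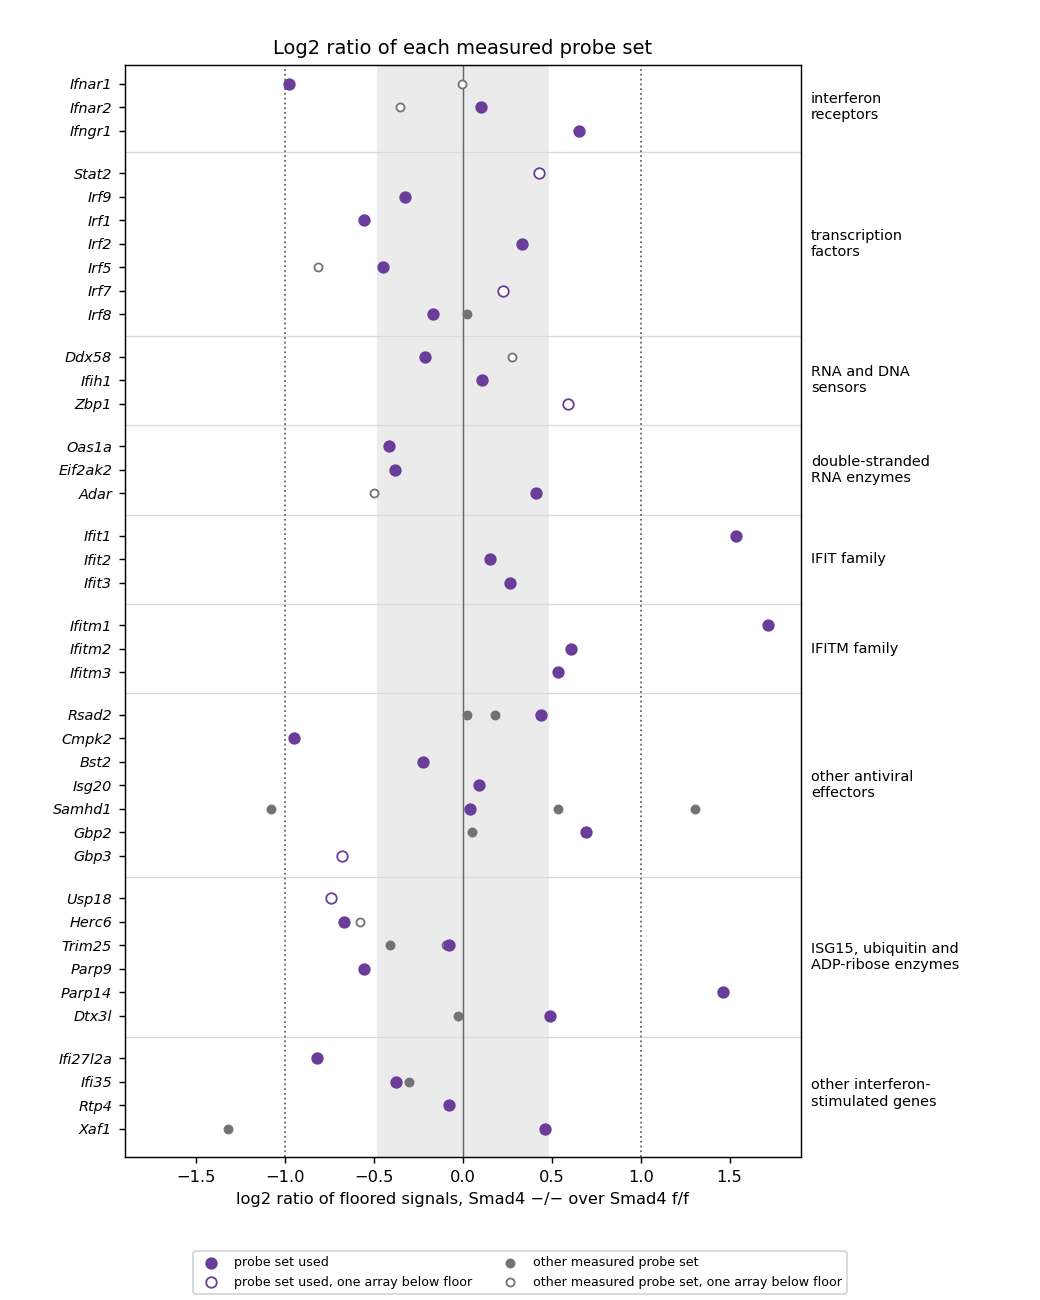
Log2 ratio (Smad4 −/− over Smad4 f/f, floored signals) of every measured probe set of the 39 measured members. Purple marks the probe set used for the gene, grey the others and open symbols a ratio with 1 array below the floor; the grey band is the within-gene SD of 0.48 and the dotted lines are 2-fold. Probe sets of Samhd1 spread from −1.08 to 1.31, and those of Xaf1 lie on both sides of 0.

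Among the receptors, the largest difference was in Ifnar1, which binds type I interferon together with Ifnar2. Ifnar1 read 193 in Smad4 −/− platelets, against 381 in Smad4 f/f platelets, 1.97-fold lower (log2 ratio −0.98) and just short of 2-fold. With the floor at the 75th percentile the log2 ratio of Ifnar1 was −0.55 or lower. Its second probe set also read lower, with 45.3 in Smad4 −/− and 146 in Smad4 f/f, but with the Smad4 f/f signal barely above the floor its ratio is a bound near 0, which brings the mean of both to −0.49. Ifnar2 read 703 in Smad4 −/− and 656 in Smad4 f/f, a log2 ratio of 0.10. Another probe set of Ifnar2 gave −0.35 or lower, with 38.2 in Smad4 −/−, below the floor, and 185 in Smad4 f/f. Without a floor its log2 ratio was −2.28. Ifngr1, the ligand-binding chain for interferon gamma, read 400.2 in Smad4 −/− and 254 in Smad4 f/f, 1.57-fold higher. Ifngr2, its partner, lay below the floor on both arrays, with 27.0 in Smad4 −/− and 67.7 in Smad4 f/f. The receptor genes showed no common direction.

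Of 7 measured transcription factors of the pathway, 3 had a ratio above 0 and 4 below, and none passed 2-fold with the floor used. Stat2, a subunit of ISGF3, read 196 in Smad4 −/− and 97.5 in Smad4 f/f, at least 1.35-fold higher, since the Smad4 f/f signal was below the floor. Irf9, the DNA-binding subunit of ISGF3, read 239 in Smad4 −/− and 299 in Smad4 f/f, a log2 ratio of −0.32. Without a floor Stat2 was 2.01-fold higher. Stat2 and Irf9 were thus on opposite sides of 0. Irf7, which amplifies type I interferon production, read 169.9 in Smad4 −/− and 142 in Smad4 f/f, near the floor on both arrays. Irf1, an activator induced by interferon gamma, read 526 in Smad4 −/− and 772 in Smad4 f/f, a log2 ratio of −0.55. Irf2, which antagonises Irf1, read 1097 in Smad4 −/− and 872 in Smad4 f/f, a log2 ratio of 0.33. Irf5, a factor downstream of Toll-like receptors, read 286 in Smad4 −/− and 389.6 in Smad4 f/f, and both of its measured probe sets were lower. Irf8, a factor of the monocyte and dendritic cell lineages, read 403 in Smad4 −/− and 453 in Smad4 f/f, with probe sets of both signs. For Irf3, which is activated by nucleic acid sensors, the 3 probe sets not marked as cross-hybridising lay below the floor, and the only one above it, of the type that can cross-hybridise, read 511 in Smad4 −/− and 720.5 in Smad4 f/f and was not used.

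Sensors of foreign nucleic acid differed little between the arrays, apart from Zbp1. Ddx58, which encodes the RNA sensor RIG-I, read 439.8 in Smad4 −/− and 509.6 in Smad4 f/f, and its second measured probe set went the other way. Ifih1, which encodes MDA5, a sensor of long double-stranded RNA, read 172 in Smad4 −/− and 159 in Smad4 f/f. Zbp1, a sensor of Z-form nucleic acid that starts necroptosis, read 219 in Smad4 −/− and 39.6 in Smad4 f/f. It was at least 1.51-fold higher, and without a floor its log2 ratio was 2.47. Its other probe set was below the floor on both arrays and went the other way, with 23.7 in Smad4 −/− and 45.1 in Smad4 f/f. Dhx58, a regulator of the other RNA helicase sensors, was below the floor on both arrays.

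Of 7 genes in the group of double-stranded RNA enzymes 4 were below the floor on both arrays. Oas1a, which makes the second messenger that activates RNase L, read 356 in Smad4 −/− and 474 in Smad4 f/f, a log2 ratio of −0.42. Those below the floor were its relatives Oas2, Oas3, Oasl1 and Oasl2. Eif2ak2, the kinase PKR that halts translation, read 149 in Smad4 −/− and 194 in Smad4 f/f, a log2 ratio of −0.38. Adar, which edits adenosine to inosine, read 356 in Smad4 −/− and 267 in Smad4 f/f. Its other measured probe set was lower, with the Smad4 −/− signal below the floor, and the mean of both was −0.044 or lower.

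Other antiviral effectors were split. Rsad2, which encodes viperin, read 4904 in Smad4 −/− platelets, against 3611 in Smad4 f/f platelets, a log2 ratio of 0.44, against 0.18 and 0.021 by its remaining probe sets. Cmpk2, a mitochondrial nucleotide kinase, is the direct neighbour of Rsad2 on chromosome 12. Cmpk2 read 166 in Smad4 −/− and 320.3 in Smad4 f/f, 1.93-fold lower (log2 ratio −0.95), so these neighbours differed in direction. With the floor at the 75th percentile the log2 ratio of Cmpk2 was −0.30 or lower, since its Smad4 −/− signal then fell below the floor. The guanylate-binding protein genes Gbp2 and Gbp3, close together on chromosome 3, also did. Gbp2 read 356 in Smad4 −/− and 221 in Smad4 f/f, 1.62-fold higher, though its other probe set gave 0.052. Gbp3 read 115 in Smad4 −/− and 232 in Smad4 f/f, a log2 ratio of −0.68 or lower, since the Smad4 −/− signal was below the floor. Isg20, an exonuclease for single-stranded RNA, read 37067 in Smad4 −/− and 34734 in Smad4 f/f, a log2 ratio of 0.094. Bst2, the virus-tethering protein tetherin, read 329 in Smad4 −/− and 384 in Smad4 f/f, a log2 ratio of −0.22. Samhd1, which degrades deoxynucleotides, read 1175 in Smad4 −/− and 1141 in Smad4 f/f by the probe set used. Its other measured probe sets gave log2 ratios of 0.53, 1.31 and, for one that can cross-hybridise, −1.08, and the mean without that set was 0.63. Mx1 and Mx2, dynamin-like GTPases, were below the floor on both arrays.

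In the ISG15 and ubiquitin group 4 of 6 measured genes read lower in Smad4 −/−, where 5733 of all 11089 did. Usp18, which removes ISG15 from proteins and also damps Ifnar2 signalling, read 95.4 in Smad4 −/− and 243 in Smad4 f/f, at least 1.67-fold lower. Herc6, the main ISG15 ligase in mice, read 390.2 in Smad4 −/− and 619 in Smad4 f/f, 1.59-fold lower, with both measured probe sets in that direction. Trim25, which ubiquitinates RIG-I, read 903 in Smad4 −/− and 952 in Smad4 f/f, with all 3 probe sets lower. The weakest of the 3 read 58.1 in Smad4 −/−, below the floor, and 155 in Smad4 f/f, so its ratio is a bound. Along with Parp9, given above, Usp18, Herc6 and Trim25 make up the lower genes of the group. Usp18, Herc6 and Parp9 are beyond the within-gene SD, and none of them reached 2-fold with the floor used.

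Among the remaining 4 interferon-stimulated genes Ifi27l2a had the largest difference by the probe sets used. By the same sets Ifi35, Rtp4 and Xaf1 lay within the within-gene SD. Ifi27l2a, a mitochondrial and nuclear envelope protein of the ISG12 family, read 745 in Smad4 −/− and 1314 in Smad4 f/f, 1.76-fold lower (log2 ratio −0.82). Ifi35, a partner of Nmi, read 724 in Smad4 −/− and 939.6 in Smad4 f/f, a log2 ratio of −0.38. Rtp4, a chaperone of membrane receptors that also binds viral RNA, read 345 in Smad4 −/− and 363 in Smad4 f/f. Xaf1, an antagonist of the apoptosis inhibitor Xiap, read 499 in Smad4 −/− and 362 in Smad4 f/f by the probe set used, but its other probe set gave −1.32 and the mean was −0.43.

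The 9 members below the floor on both arrays were Ifngr2, Irf3, Dhx58, Oas2, Oas3, Oasl1, Oasl2, Mx1 and Mx2. Their signals ran from 19.4 to 125 in Smad4 −/− and from 36.8 to 138 in Smad4 f/f, and no ratio is given for them. Taken without a floor, 24 of the 48 members were higher and 24 lower, and their median log2 ratio was −0.017, against −0.039 over all genes.

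How often genes passed 2-fold varied with signal. Of measured genes split into 4 equal groups by mean signal, weakest to strongest, 5.05%, 10.5%, 8.01% and 4.47% passed 2-fold in either direction. Parp14 falls in the second group, and Ifit1 and Ifitm1 in the highest, where 2 of 12 members passed. In the plot of ratio against signal Ifit1 and Ifitm1 lie outside most genes of like signal, while Ifnar1 and Cmpk2 lie at the edge of a broad cloud.

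**Figure D3:**
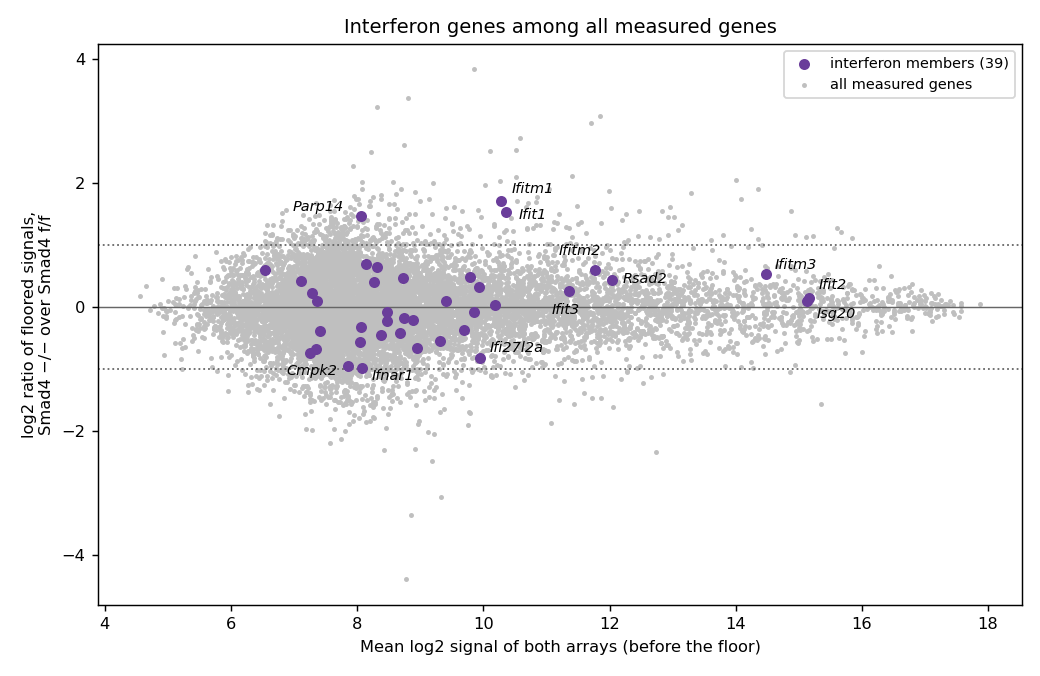
Log2 ratio (Smad4 −/− over Smad4 f/f, floored signals) against mean log2 signal of both arrays for the 39 measured members (purple) and all 11089 measured genes (grey). Dotted lines are 2-fold. Ifitm1 and Ifit1 have log2 ratios of 1.72 and 1.53.

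Ratios of members with and without the ISRE core overlapped, and no test was run. Parp14, Parp9, Usp18, Zbp1, Ifi27l2a and Rtp4 were measured but had no window, so they are left out. Of 16 measured members with the core, 10 were higher and 6 lower in Smad4 −/−, with a median log2 ratio of 0.30 and a range of −0.68 to 1.53. Of 17 measured members with a window but no core, 9 were higher and 8 lower, with a median of 0.042 and a range of −0.98 to 1.72. For the GAS, the median was −0.063 over 14 members with a match and 0.26 over 19 without. All 4 ranges overlap widely, and the highest ratio belonged to Ifitm1, which had neither motif.

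**Figure D4:**
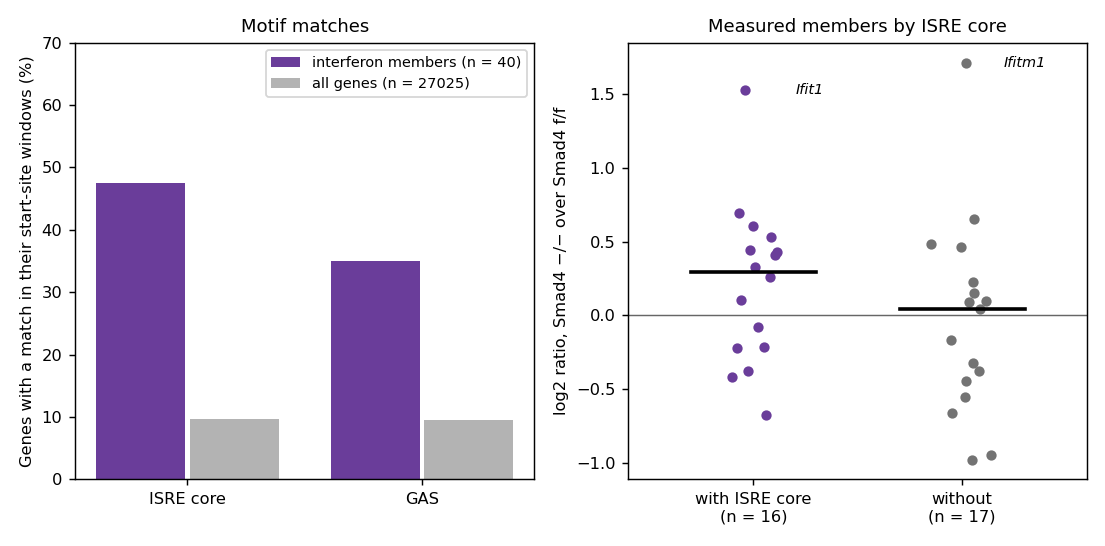
Left, percent of genes with a match to the ISRE core or the GAS in their start-site windows, for 40 members (purple) and 27025 genes (grey). Right, log2 ratio (Smad4 −/− over Smad4 f/f) of measured members with (n = 16) and without (n = 17) the ISRE core, with medians of 0.30 and 0.042 as bars.

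Other genes of the interferon system, taken from a separate list of 91, gave a similar spread. Of 60 measured, 3 were at least 2-fold higher and 2 at least 2-fold lower in Smad4 −/−, against 3.42% and 3.58% of all measured genes. In this list 30 lay on each side of 0, and the median log2 ratio was −0.0068. Ptpn2, a phosphatase that dephosphorylates JAK and STAT proteins, read 1164 in Smad4 −/− and 515 in Smad4 f/f, 2.26-fold higher. Stat3 read 1796 in Smad4 −/− and 819 in Smad4 f/f, 2.19-fold higher, and its 3 measured probe sets had ratios of 0.44 to 1.13. Irgm2, an immunity-related GTPase, read 297 in Smad4 −/− and 138 in Smad4 f/f, at least 2.05-fold higher. Ogfr was at least 2.91-fold lower by the probe set used, with 119.8 in Smad4 −/− and 422 in Smad4 f/f, while its other probe set gave 0.068. Ikbke, a kinase upstream of Irf3 named here after its values were seen, was 2.03-fold lower. Averaged over probe sets, 1 gene of this list was 2-fold higher and 1 lower.

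Of 12 genes of the interferon ligand list on the array, 8 were below the floor on both arrays, among them Ifnb1 and Ifng. Only Il10rb, a receptor chain included in that list, was above the floor on both arrays, with 3060 in Smad4 −/− and 1918 in Smad4 f/f. Ifna1 and Ifna2 read 164 and 165 in Smad4 −/−, just above the floor, and 137 and 36.5 in Smad4 f/f, and Ifnz read 63.7 in Smad4 −/− and 195 in Smad4 f/f.

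Of the marker lists of other cells, the erythroid list differed most between the arrays. The counts past 2-fold given here stand beside 3.42% of all measured genes higher and 3.58% lower. The erythroid list had 6 of 9 measured genes past 2-fold, all higher in Smad4 −/−. The largest ratio was that of Slc25a37, at 2051 in Smad4 −/− and 526 in Smad4 f/f. Lower in Smad4 −/− were 2 of the 9, Klf1 (217 in Smad4 −/−, 269 in Smad4 f/f) and Tfrc (350 in Smad4 −/−, 532 in Smad4 f/f). Fech (13904 in Smad4 −/−, 4551 in Smad4 f/f) and Bpgm (7635 in Smad4 −/−, 2881 in Smad4 f/f) had the highest signals. Hba-a1, Epb42 and Car1 were below the floor by the probe set used. Another probe set of Epb42 was measured, with a log2 ratio of 0.70. For 14 T and NK cell markers the sums were 17991 in Smad4 −/− and 8664 in Smad4 f/f, with Cd3e, Cd3g, Cd247, Cd4 and Cd8b1 below the floor and 1 of 9 measured genes, Cd28, past 2-fold. Cd28 alone read 12825 in Smad4 −/− and 4685 in Smad4 f/f, and the other 13 summed to 5166 in Smad4 −/− and 3979 in Smad4 f/f. Cd3d, a subunit of the T cell receptor complex, read 181 in Smad4 −/− and 356 in Smad4 f/f. Sums of 11 B cell markers were 7889 in Smad4 −/− and 6423 in Smad4 f/f, with 2 of 10, Jchain and Cr2, at least 2-fold higher, and Pax5 was below the floor. Neutrophil markers summed to 8121 in Smad4 −/− and 6389 in Smad4 f/f, with 0 of 7 past 2-fold and Mpo, Elane, Camp and Mmp8 below the floor. Monocyte and macrophage markers summed to 249126 in Smad4 −/− and 234902 in Smad4 f/f, mostly from Lyz2 and F13a1, of which F13a1 is also a platelet transcript. Without these the sums were 2106 in Smad4 −/− and 2246 in Smad4 f/f. Of 9 measured genes 5 had a ratio below 0 and 1, Csf1r, was at least 2-fold higher, though its probe sets ran from −0.48 to 1.64, and Ccr2 and Cd14 were below the floor. Markers of plasmacytoid dendritic cells, a main source of type I interferon, summed to 1565 in Smad4 −/− and 2026 in Smad4 f/f, with 1 of 6, Siglech, at least 2-fold lower and Klk1 below the floor by the probe set used (0.087 by another). Endothelial markers summed to 139657 in Smad4 −/− and 113876 in Smad4 f/f, mostly from Vwf and Esam, which platelets also express. Without these the sums were 4367 in Smad4 −/− and 2523 in Smad4 f/f, a split made after the sums were seen. Flt1 alone of 9 measured genes was at least 2-fold higher, with probe sets running from −0.16 to 3.23, and Tek, Tie1 and Emcn were below the floor. Platelet markers summed to 1.2e+06 in Smad4 −/− and 1.14e+06 in Smad4 f/f.

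**Figure D5:**
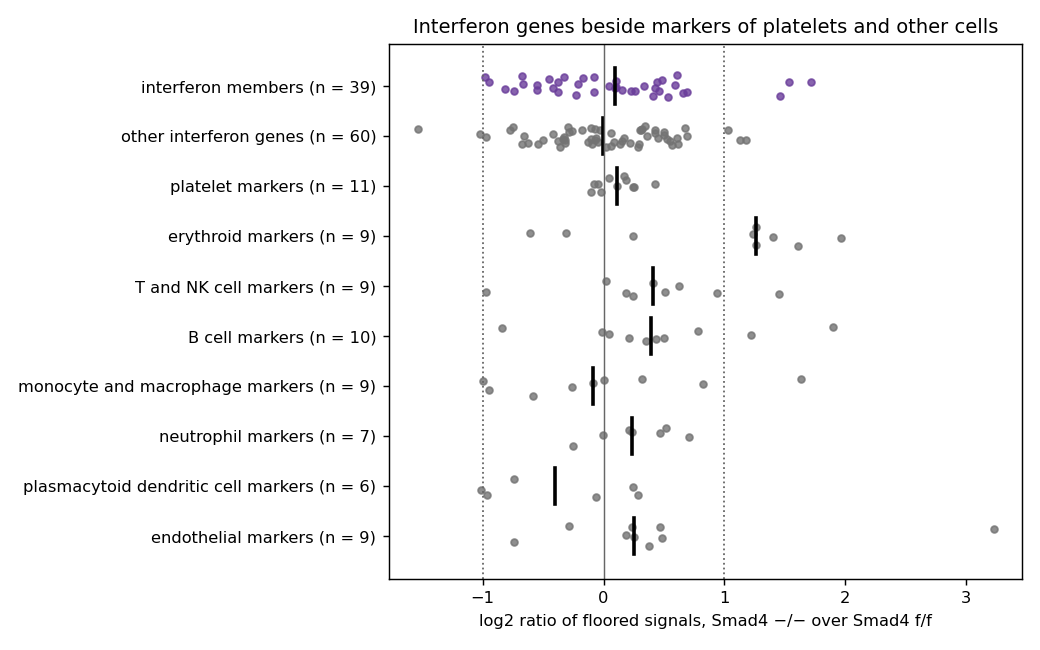
Log2 ratio (Smad4 −/− over Smad4 f/f, floored signals) of each measured gene in the interferon list (purple), the other interferon genes and lists of cell markers (grey), with the median as a black bar and 2-fold as dotted lines. The interferon list has a median of 0.094, platelet markers 0.11 and erythroid markers 1.26.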

How the data were processed

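Total RNA of washed platelets was hybridised to Affymetrix Mouse Genome arrays after 3′ in vitro transcription labelling, per the labels' protocols, with 1 array for each genotype. The authors deposited 1 log2 signal for each probe set. Per the submitters' processing notes MAS5 was used, and its settings are not given in the sources used here. Antilogs of the deposited log2 values have a trimmed mean (2% cut at either end) of 500.01 on each array.

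The arrays hold 45101 probe sets, 64 of them controls. Among the rest 34945 have 1 gene symbol in the platform annotation, which can be out of date, 932 have several and 9160 none, and only the first kind was used. Through Entrez IDs 34741 of them matched a RefSeq gene table (GRCm38.p6), and 0 symbols changed. Neighbouring members had at most 9 other protein-coding genes between them in that table.

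The floor was the higher of the 60th percentiles of both arrays (log2 7.18). Probe sets ending in _x_at, which can cross-hybridise, served only for genes with no other. A 2-fold difference is a rule of size, and no test was run. All members were named by role, and of the other interferon genes the 4 with the largest ratios, with Ikbke added. The members, lists, rules and motifs were chosen with earlier results of these data known. Alternatives were 3 scalings (medians, quantiles, and loess), the 50th or 75th percentile as floor, or no floor, averaging each gene over its measured sets, dropping _s_at and _x_at sets, and rules of 1.5-fold and 3-fold. The steps were tested on simulated data. Python 3.11.15, pandas 2.3.3, statsmodels 0.14.6 and matplotlib 3.10.9 were used.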

Additional observations from a re-analysis of the deposited data

How the results depend on the processing

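Under the 10 alternatives Ifit1 and Ifitm1 were at least 2-fold higher in Smad4 −/− except that the 3-fold rule kept Ifitm1 alone, and Parp14 was so under all but the floor at the 75th percentile and the 3-fold rule. Without a floor 5 of 39 members were 2-fold higher, with Stat2 and Zbp1 added, and 2 lower, Gbp3 and Usp18. Of all measured genes 10.2% were then higher and 11.7% lower. With the floor at the 50th percentile 4 of 43 members were higher, with Zbp1 added, and the same 2 lower, against 5.10% and 5.80%. The 1.5-fold rule gave 7 higher and 6 lower, against 11.8% and 13.3% of all measured genes, and the 3-fold rule 1 higher. The median log2 ratio of the members was 0.19 with arrays centred on their medians and −0.044 with averaged probe sets, and that of the other interferon genes 0.086 with centred arrays. Over all genes, the counts higher and lower were 671 and 762 for the lower floor (50th percentile), 175 and 140 for the higher one (75th), 1130 and 1301 without one, 1308 and 1480 at 1.5-fold, and 57 and 46 at 3-fold. Of the other interferon genes, 1 was 2-fold higher and 1 lower with averaged probe sets, 7 and 8 at 1.5-fold, and 0 and 0 at 3-fold. In that list 1 was lower under each of the 3 scalings, 6 without a floor and 0 with the floor at the 75th percentile. Of 303 single member values recomputed, 292 moved by less than the within-gene SD and 11 by more. Many could not move that far, since averaging leaves the 25 members with 1 measured probe set unchanged. A change of floor likewise leaves members well above each floor unchanged. A change of sign was counted only for values past 2-fold, those of Ifit1, Ifitm1 and Parp14, and 0 were found. Each of these has 1 measured probe set, so averaging could not change it. Smaller ratios did change sign: with averaged probe sets Xaf1 went from 0.46 to −0.43 and Adar from 0.41 to −0.044. Ifnar2 went from 0.10 to −0.13 and Ddx58 from −0.21 to 0.033. No paired analysis was possible because each genotype has 1 array. Signals near the floor limit what can be read for Parp14, Cmpk2, Zbp1, Stat2, Gbp3, Usp18, Irf7, Eif2ak2, Ifih1 and Ifnar1.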
